A study of Mus musculus and Rattus norvegicus with 24 samples.

Results

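The transcription factor genes of the heart muscle programme described here across single cardiomyocytes are Nkx2-5, Gata4, Tbx5, Tbx20, Mef2a and Mef2c. They were chosen by name, and all 6 are among the 9595 genes of the deposited count table. The table holds 24 single-cell libraries in 3 groups of 8, and the cells of each group are called A to H as the labels letter them. Mouse embryonic stem cells of the genotype mESCIsl1-Cre; Rosa-RFP; aMHC-GFP were differentiated into cardiomyocytes. The 8 cultured cells then spent 30 days in vitro, and the 8 transplanted cells spent 30 days in the heart of a neonatal rat. The 8 adult cells came from ventricular tissue of adult rats labelled WT. The stem cell line carries Cre under Isl1, an RFP reporter at Rosa and GFP under the alpha myosin heavy chain promoter, so both stem cell groups share these alleles. The comparisons ask how maturing in a heart relates to expression in culture, with adult ventricular cells set beside both.

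Heart muscle identity is built by a small set of DNA-binding proteins that act together on shared enhancers and promoters. NKX2-5 is a homeodomain protein, GATA4 a zinc finger protein, TBX5 and TBX20 are T-box proteins, and MEF2A and MEF2C are MADS-box proteins. Most of them are needed in the embryo to form the heart tube and its chambers. Several remain in adult cardiomyocytes, where they bind genes of the sarcomere, calcium handling and natriuretic peptides.

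The labels name no culture, animal or sorting day for a cell, so each group counts as 1 sample of 8 cells and no test between groups was made. Levels are given as CPM (a gene's counts per 1000000 counts of the cell), first per cell and then for the sum over the 8 cells of a group. Intervals are exact 95% Poisson intervals for a level and exact conditional binomial intervals for a fold. Both cover counting error only, not the spread between cells, cultures or animals, and reads without molecular identifiers are not independent molecules. Totals were 16099 to 60789 counts per cultured cell, 88796 to 344224 per transplanted cell and 108546 to 223744 per adult cell. Where a group had 0 counts, 3 counts of its total served as its limit, which is 14.6 CPM for the cultured, 2.30 CPM for the transplanted and 2.36 CPM for the adult group. The exact 95% upper ends at 0 counts are higher, at 17.9, 2.83 and 2.90 CPM. A fold given as at least some value sets the group with 0 counts at its limit. It takes the other group's level as counted, so it has no interval, and counting error could put the fold below it. A gene is called higher or lower in a comparison when it has at least 10 counts over both groups and differs by at least 2-fold, and the share of all such genes called is given as the background.

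Some facts of the whole set bear on every value. Labelled cell type was checked with 10 cardiomyocyte marker genes. They took 11.1% to 16.1% of the counts in the transplanted and 11.1% to 15.2% in the adult cells, but 0.00419% to 17.5% in the cultured cells, where cells F, G and H held 0.742%, 0.0883% and 0.00419%. In cultured B to E most marker counts were of 1 gene, Ttn, with 2685, 2499, 2849 and 1254 counts. The markers Myl2 and Tnni3 had 0 counts in those cells. The 22 markers of fibroblast, endothelial, smooth muscle or pericyte, leukocyte and endoderm cells found in the table together took at most 0.209% of any cell, in cultured H. The table holds only 5 of 10 endothelial and 3 of 10 leukocyte markers. Pluripotency genes, a separate list, took at most 0.135% of a cultured, 0.0372% of a transplanted and 0.762% of an adult cell. The last is adult A, with 1704 counts of Sox2. Of the 7 fibroblast genes in the table, Fn1 had 475 CPM, Pdgfra 199 CPM and Col1a2 77.6 CPM in the cultured group, with 0 counts of each in the other groups. Col3a1, Dcn, Lum and Postn had 0 counts in the cultured cells. Among the endothelial genes, Pecam1 had 1 count in all, in a transplanted cell. Fabp4, also on that list, had 217 counts (167 CPM) in transplanted D, G and H and 0 in the other groups. The small RNA Rpph1 took 2.51% to 5.48% of cultured cells B to E and at most 0.0574% of any other cell. Rat reads were matched to mouse gene names, so species and maturity cannot be told apart in the adult group. Counts of any 2 cells of a group differed by more than counting noise.

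The genes lie at separate loci on the mouse build mm10, by GENCODE annotation. Nkx2-5 is ENSMUSG00000015579.5 at chr17:26838664-26845009 on the minus strand. Gata4 is ENSMUSG00000021944.15 at chr14:63198922-63271692, minus strand. Tbx5 is ENSMUSG00000018263.11 at chr5:119832668-119885219, plus strand, and Tbx20 is ENSMUSG00000031965.15 at chr9:24718138-24774303, minus strand. Mef2a is ENSMUSG00000030557.17 at chr7:67231163-67372858, minus strand, and Mef2c is ENSMUSG00000005583.16 at chr13:83504034-83667080, plus strand. Counts are of whole genes, so exons, introns and isoforms were not separated.

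Mef2a and Mef2c encode closely related proteins, so their transcripts are shown to let a reader judge whether short reads could be shared. The first 120 coding bases, which encode most of the DNA-binding MADS box, are printed in lower case with capitals at every base that differs between the genes, from 1 GENCODE transcript each.
Mef2a: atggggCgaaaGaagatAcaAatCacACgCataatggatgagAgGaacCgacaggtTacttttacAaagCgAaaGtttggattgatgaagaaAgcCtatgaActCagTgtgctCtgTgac
Mef2c: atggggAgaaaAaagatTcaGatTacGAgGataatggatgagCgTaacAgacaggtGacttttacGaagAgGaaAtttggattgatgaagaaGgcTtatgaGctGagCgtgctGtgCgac
Of these 120 bases 97 are identical, or 80.8%, and the longest identical run is 17 bases. Over the whole transcripts of the 6 genes and the family member Mef2d, no run of 30 bases was shared in any of 21 pairs of genes. Mef2a overlaps the opposite-strand gene Lysmd4 by 302 exon bases, and the strand rule of the counting is not given in the sources used here. Lysmd4 had 6 counts, all in cultured cell C, a cell with 0 counts of Mef2a.

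The promoters shown next carry words that these factor families bind, in Mef2a itself and in a few of the 30 textbook target genes listed for them. Each is 300 bases on GRCm38.p6 from RefSeq, from 250 bases before to 50 after the annotated start, in the direction of transcription. Capitals mark matches on either strand to the MEF2 word CTANNNNTAG, to the GATA words AGATAA and also AGATAG, or with a different first base TGATAA and also TGATAG, to the NKX2-5 word TNAAGTG or to the T-box word AGGTGTG. The Mef2a promoter is chr7:67372809-67373108 on the minus strand, Xirp2 is chr2:67445752-67446051, Nppb chr4:147985650-147985949 and Nppa chr4:148000472-148000771, these 3 on the plus strand.
Mef2a: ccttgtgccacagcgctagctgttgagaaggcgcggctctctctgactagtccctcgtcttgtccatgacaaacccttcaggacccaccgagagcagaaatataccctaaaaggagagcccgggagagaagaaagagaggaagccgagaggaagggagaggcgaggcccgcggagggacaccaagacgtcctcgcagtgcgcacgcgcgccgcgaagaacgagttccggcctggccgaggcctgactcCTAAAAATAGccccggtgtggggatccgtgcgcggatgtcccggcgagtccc
Xirp2: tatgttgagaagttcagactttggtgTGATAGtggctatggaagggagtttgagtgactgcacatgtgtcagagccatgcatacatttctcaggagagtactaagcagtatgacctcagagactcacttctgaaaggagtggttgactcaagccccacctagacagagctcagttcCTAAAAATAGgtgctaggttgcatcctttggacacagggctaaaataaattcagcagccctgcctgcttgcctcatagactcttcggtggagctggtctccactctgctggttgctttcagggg
Nppb: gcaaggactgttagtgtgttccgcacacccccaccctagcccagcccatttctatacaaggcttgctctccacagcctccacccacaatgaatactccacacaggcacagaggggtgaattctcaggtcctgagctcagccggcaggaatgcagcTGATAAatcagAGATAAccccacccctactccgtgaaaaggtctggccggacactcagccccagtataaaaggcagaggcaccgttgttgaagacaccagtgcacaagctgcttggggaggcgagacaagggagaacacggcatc
Nppa: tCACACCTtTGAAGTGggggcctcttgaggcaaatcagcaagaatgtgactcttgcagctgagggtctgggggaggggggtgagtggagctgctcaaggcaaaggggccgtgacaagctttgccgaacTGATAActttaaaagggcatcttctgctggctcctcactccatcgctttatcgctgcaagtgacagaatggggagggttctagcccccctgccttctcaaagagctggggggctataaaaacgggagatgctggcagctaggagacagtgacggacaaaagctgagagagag
The Mef2a promoter holds 1 MEF2 match, CTAAAAATAG, from -2 to 8 around its own start. The same 10 letters lie at -74 to -65 in Xirp2, a gene for a protein of the cell junctions of heart muscle, which also has the GATA match TGATAG. Nppb, which encodes B-type natriuretic peptide, holds the GATA matches TGATAA at -95 and AGATAA at -84. Nppa, which encodes atrial natriuretic peptide, has CACACCT (the T-box word on the other strand) at -249, TGAAGTG at -241 and TGATAA at -122. None of the words overlapped another in these 4 windows.

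**Figure D1:**
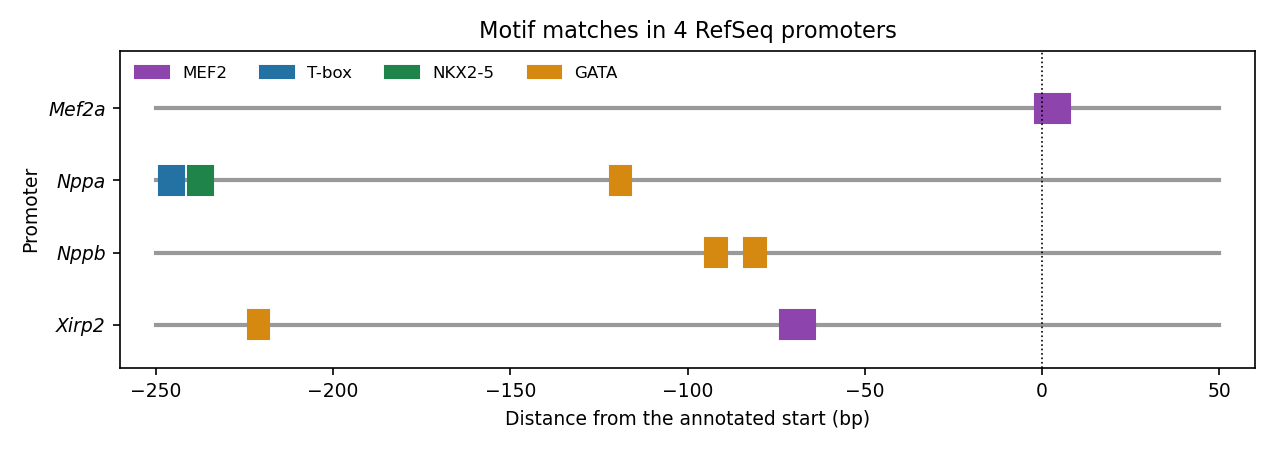
Positions of word matches in the 4 promoters, as distance from the annotated start in bp on the horizontal axis, with 1 line per promoter and a box per match coloured by factor family. The MEF2 match of Mef2a spans its start at -2 to 8, and the T-box and NKX2-5 matches of Nppa lie at the far end of its window.

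Set against 32851 RefSeq promoters of the same length, MEF2 matches were held by 3.69%, GATA matches by 29.8%, NKX2-5 matches by 11.5% and T-box matches by 5.84%. Among 33 promoters of the 27 target genes found there, GATA matches were held by 17, or 51.5%, NKX2-5 matches by 3, or 9.09%, and MEF2 and T-box matches by 2 each, or 6.06%. Of the 6 factors 4 were found, with 6 promoters: 1 of Mef2a held the MEF2 word and 1 of Mef2c the T-box word, AGGTGTG at -216. A match describes letters in this window only.

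Each cell held reads of few of the 6 genes. No factor had a count in 7 of the 24 cells, 1 factor in 11 cells, 2 in 3 cells, 3 in 2 cells and 4 in 1 cell, cultured A. The 2 cells with 3 factors were cultured B, with Tbx20, Mef2a and Mef2c, and adult C, with Nkx2-5, Mef2a and Mef2c. In all, the factors took 243 counts or 0.118% of the cultured group, 39 counts or 0.00299% of the transplanted group and 326 counts or 0.0256% of the adult group. A count of at least 1 of them was found in 7 of 8 cultured, 6 of 8 transplanted and 4 of 8 adult cells.

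**Figure D2:**
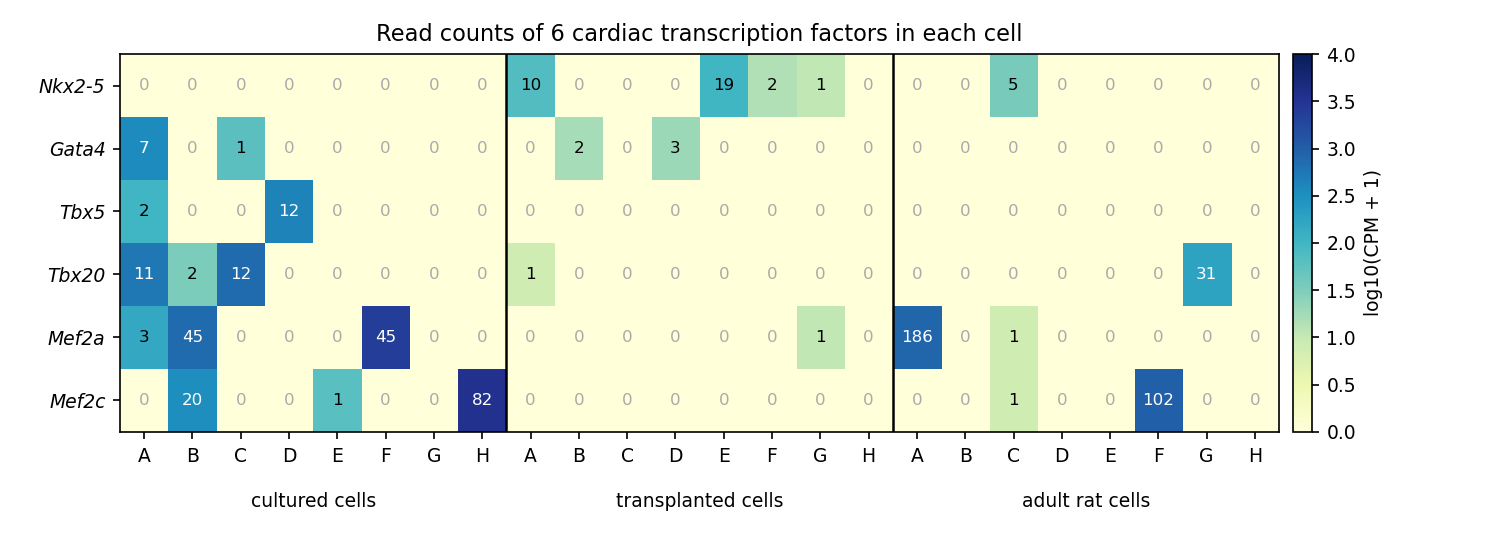
Read counts (numbers) of the 6 factors, 1 per row, in each of the 24 cells, 1 per column, with colour giving log10(CPM + 1). Nkx2-5 reads lie in transplanted A, E, F and G and adult C, while the largest counts are 186 of Mef2a in adult A and 102 of Mef2c in adult F.

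NKX2-5 is the homeodomain factor found earliest in the heart field and kept in cardiomyocytes afterwards. Nkx2-5 had 10 counts (70.4 CPM) in transplanted A, 19 (97.1 CPM) in E, 2 (13.2 CPM) in F and 1 (9.98 CPM) in G, and 0 in B, C, D and H. The cultured cells held 0 counts in all 8, and the adult cells 5 counts (34.7 CPM) in C and 0 in the other 7. The transplanted group thus has the most cells with a read, but its cells without one overlap the cultured and adult cells at 0.

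For the group sums, Nkx2-5 was at 24.6 CPM (16.8 to 34.7) in the transplanted, 3.93 CPM (1.28 to 9.18) in the adult and 0 in the cultured cells, which allows up to 14.6 CPM. By that limit it was at least 1.69-fold higher in transplanted than in cultured cells, under the 2-fold call. The exact level intervals overlap, as 0 cultured counts has an upper end of 17.9 CPM. Without transplanted E, 13 counts or 11.7 CPM remain, below the cultured limit, and no fold can be given. With factors scaled by trimmed means (TMM, edgeR) the bound passes 2-fold, at a log2 ratio of 1.67. Without cultured B to E, 0 counts in the remaining cultured cells allows more than 24.6 CPM, and no fold can be given. For a single cultured cell, 0 counts allows up to 49.4 CPM in B and up to 186 CPM in E, and the 97.1 CPM of transplanted E lies above the limit of B only.

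GATA4 is a zinc finger factor that works with NKX2-5 and TBX5 on shared promoters. Gata4 had 7 counts (353 CPM) in cultured A and 1 (60.3 CPM) in C, 2 (16.1 CPM) in transplanted B and 3 (19.2 CPM) in D, and 0 in every adult cell. Most of its reads come from 1 cell, and all groups overlap at 0. Its group levels were 38.8 CPM (16.8 to 76.5) in cultured and 3.84 CPM (1.25 to 8.96) in transplanted cells, with 0 in adult cells, which allows up to 2.36 CPM. Gata4 was 10.1-fold lower in transplanted than in cultured cells (2.92 to 39.3). Without cultured A that fold is 1.40, without transplanted B 15.2 and without transplanted D 22.2, so the call rests on cultured A. In adult cells it was at least 16.4-fold lower than in cultured cells, from 8 counts, below the 10 needed for a call, and without cultured A no fold can be given.

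TBX5 is the T-box factor of the left ventricle and atria and of the conduction system. Tbx5 had 2 counts (101 CPM) in cultured A and 12 (430 CPM) in cultured D, and 0 in the other 6 cultured, the 8 transplanted and the 8 adult cells. Its cultured level was 67.9 CPM (37.1 to 114). Against limits of 2.30 and 2.36 CPM, it was at least 29.5-fold lower in transplanted and at least 28.8-fold lower in adult cells. Without cultured D only 2 counts remain and neither fold can be given.

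TBX20 is the other cardiac T-box factor, which can act as an activator or a repressor. Tbx20 had 11 counts (555 CPM) in cultured A, 2 (32.9 CPM) in B and 12 (724 CPM) in C, 1 count (7.04 CPM) in transplanted A, and 31 (180 CPM) in adult G. The other 19 cells had 0, so the groups overlap, and cultured A and C each lie above every other cell. As group sums these are 121 CPM (78.5 to 179) in cultured, 0.768 CPM (0.0194 to 4.28) in transplanted and 24.4 CPM (16.6 to 34.6) in adult cells. Tbx20 was 158-fold lower in transplanted than in cultured cells (25.9 to 6486), a ratio to 1 count. That value is 97.9 without cultured A, 89.3 without cultured C and at least 46.9 without transplanted A. In adult cells it was 4.97-fold lower than in cultured cells (2.82 to 8.70), with 3.08 without cultured A, 2.81 without cultured C and at least 44.4 without adult G.

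MEF2A and MEF2C bind AT-rich sites in muscle promoters, MEF2C from early heart development and MEF2A mostly later. Mef2a had 3 counts (151 CPM) in cultured A, 45 (740 CPM) in B and 45 (2436 CPM) in F, 1 (9.98 CPM) in transplanted G, and 186 (831 CPM) in adult A with 1 (6.94 CPM) in adult C. Cultured F, B and adult A stand high and the other cells are at or near 0, so the groups overlap. The group levels were 451 CPM (364 to 553) in cultured, 0.768 CPM (0.0194 to 4.28) in transplanted and 147 CPM (127 to 170) in adult cells.

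In transplanted cells Mef2a was 588-fold lower than in cultured cells (103 to 23459), again a ratio to 1 count. It is 333-fold without cultured F and at least 180.8-fold without transplanted G. In adult cells Mef2a was 3.07-fold lower than in cultured cells (2.37 to 3.95). That value is 1.74 without cultured F, 473 without adult A, and with TMM scaling its log2 ratio is -0.70, short of 2-fold, so the adult call rests on single cells and on the scaling. With each cell given equal weight, the log2 ratio of Mef2a is -8.38 instead of -9.20 in transplanted and -1.99 instead of -1.62 in adult cells.

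Mef2c had 20 counts (329 CPM) in cultured B, 1 (62.1 CPM) in E and 82 (3433 CPM) in H, 0 in all 8 transplanted cells, and 1 (6.94 CPM) in adult C with 102 (940 CPM) in adult F. Cultured H holds the highest level of any factor in any cell. Group levels were 500 CPM (408 to 606) in cultured and 81.0 CPM (66.1 to 98.2) in adult cells, and 0 of 1302871 counts in transplanted cells, which allows up to 2.30 CPM. Mef2c was at least 217-fold lower in transplanted than in cultured cells, and at least 50.03-fold without cultured H. In adult cells it was 6.17-fold lower than in cultured cells (4.65 to 8.18), with 1.42 without cultured H and 581 without adult F. With equal weight for each cell its adult log2 ratio is -2.01 instead of -2.62.

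**Figure D3:**
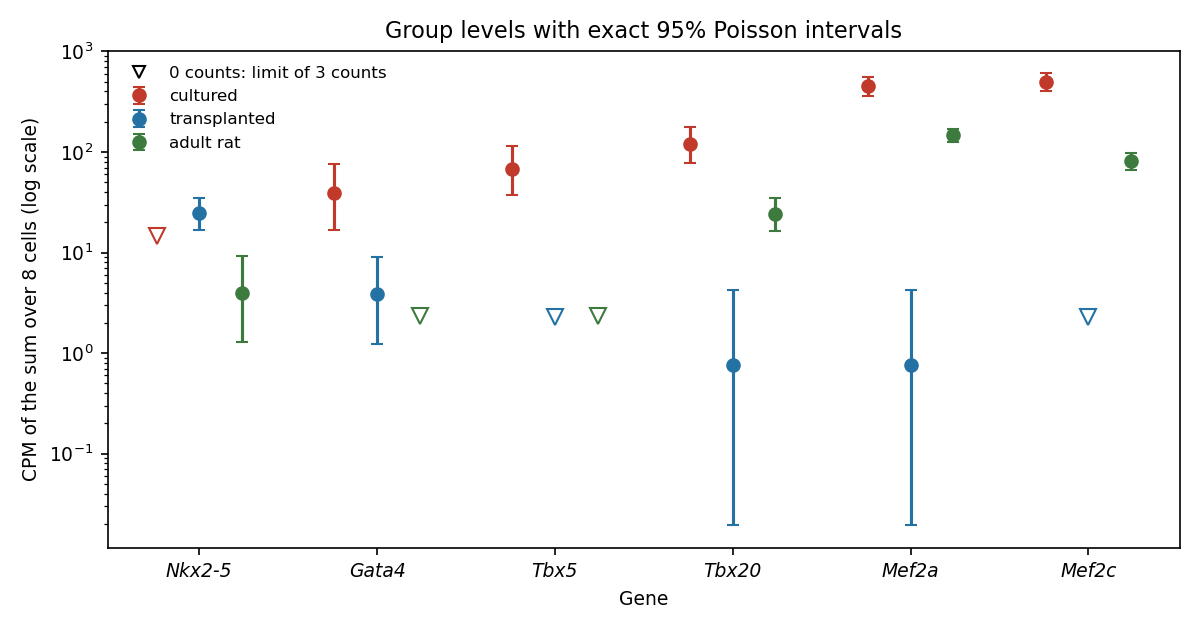
Level of each factor in CPM (log scale) for the sum over the 8 cells of each group, with exact 95% Poisson intervals, and open triangles at the limit of 3 counts where a group has 0. Mef2a and Mef2c are the highest in the cultured and adult groups at 451 and 500 CPM and at 147 and 81.0 CPM, while Nkx2-5 at 24.6 CPM leads the transplanted group.

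Levels of different genes were compared per kilobase of annotated exon, the union of all transcripts, which is long for genes with long untranslated ends. In the cultured cells the order was Mef2c 31.8 CPM per kb, Mef2a 30.7, Tbx5 14.5, Tbx20 10.1 and Gata4 9.94 CPM per kb, with Nkx2-5 at 0 and a limit of 8.46. The counting intervals of Mef2c and Mef2a overlap each other and lie above the rest, and those of Tbx5, Tbx20 and Gata4 overlap. Single cells set this order: without cultured H Mef2c is at 7.33 CPM per kb, without F Mef2a is at 17.4, without D Tbx5 at 2.40, without A Gata4 at 1.37 and Tbx20 at 6.26, and without C Tbx20 at 5.71. In the transplanted cells Nkx2-5 led at 14.3 CPM per kb (9.77 to 20.2), above Gata4 at 0.983 (0.319 to 2.29), with Tbx20 at 0.0640, Mef2a at 0.0523 and Tbx5 and Mef2c at 0. Nkx2-5 is at 6.83 CPM per kb without transplanted E, and Gata4 at 0.652 without B and 0.447 without D. In the adult cells the order was Mef2a 10.02 CPM per kb, Mef2c 5.15, Nkx2-5 2.29 and Tbx20 2.03, with Gata4 and Tbx5 at 0. The interval of Nkx2-5 (0.743 to 5.34) overlaps those of both Mef2c (4.21 to 6.25) and Tbx20 (1.38 to 2.88). Without adult A Mef2a is at 0.0650 CPM per kb and without adult F Mef2c at 0.0547, while Tbx20 without adult G and Nkx2-5 without adult C are at 0.

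Comparing the transplanted with the cultured group, 5 of the 6 factors were at least 2-fold lower, none was called higher, and Nkx2-5 was called in neither direction. Among all 4958 genes with at least 10 counts, 64.0% were called lower and 22.5% higher, so most genes were lower and the count of 5 of 6 is read against that share. Without cultured B to E, the 4 cells rich in Rpph1, 4 of 5 measured factors were called lower, with Tbx5 not measured, and the background was 49.5%. The median log2 ratio (on CPM + 1) was -6.11 over the factors and -5.63 over all genes, or -6.09 and -4.53 with groups at 0 set to their limit. Over all genes it is -2.90 without cultured B and -0.92 without cultured B to E. Cultured cells have fewer counts in total, and TMM scaling raises every CPM ratio to them by 0.92 on the log2 scale, before the 1 CPM is added. The median over all genes, on CPM + 1, then moves by 0.87 for the transplanted and 0.88 for the adult cells, and with DESeq2's size factors by 0.20 and 0.14.

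Comparing the adult with the cultured group, 4 factors had enough counts, and all 4 (Tbx5, Tbx20, Mef2a and Mef2c) were called lower. The background was 62.1% lower and 23.0% higher of 5132 genes. The median log2 ratio was -2.44 over these 4 and -3.85 over all genes, and the latter ran from -5.47 without adult C to -2.08 without cultured B. Without cultured B to E, 3 of 3 measured factors were called lower beside 47.3% of all genes, whose median is then -0.49. Nkx2-5 with 5 counts and Gata4 with 8 were below the minimum. This comparison uses the same cultured cells as the one before, so its values are not independent of it.

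Comparing the adult with the transplanted group, 3 of 4 measured factors were called higher in adult cells and 1, Nkx2-5, lower. The background was 44.3% higher and 34.8% lower of 3501 genes. The 3 higher genes each stand on 1 adult cell. Tbx20 was 31.8-fold higher (5.29 to 1295), or at least 9.43-fold without transplanted A, and no fold can be given without adult G. Mef2a was 191.6-fold higher (34.0 to 7608), or at least 59.0-fold without transplanted G, and none without adult A. With each cell given equal weight the Mef2a value is 84.0-fold. Mef2c was at least 35.2-fold higher, and no fold can be given without adult F. Nkx2-5 was 6.25-fold lower in adult cells (2.42 to 20.5), 2.99-fold without transplanted E and at least 9.23-fold without adult C. Gata4 with 5 counts and Tbx5 with 0 were not measured.

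Depth differs between the groups, so the number of cells with a read was also taken after thinning every cell to 16099 counts, that of the shallowest cell. On that footing Nkx2-5 is expected in 1.87 of 8 transplanted cells (4 as deposited) and 0.447 of 8 adult cells (1 as deposited). Gata4 is expected in 1.97 cultured cells (2 as deposited) and 0.521 transplanted cells (2 as deposited). Tbx20 is expected in 2.46 cultured, 0.113 transplanted and 0.953 adult cells (3, 1 and 1 as deposited), and Tbx5 in 1.96 cultured cells (2 as deposited). For Mef2a the values are 2.99 cultured, 0.161 transplanted and 1.11 adult cells (3, 1 and 2 as deposited), and for Mef2c 3.00 cultured and 1.11 adult cells (3 and 2 as deposited).

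Reads of each factor were concentrated in few cells. The cell with the most reads held 51.4% of all Nkx2-5 counts (transplanted E), 53.8% of Gata4 (cultured A), 85.7% of Tbx5 (cultured D), 54.4% of Tbx20 (adult G), 66.2% of Mef2a (adult A) and 49.5% of Mef2c (adult F). The median over the 6 is 54.1%. Over all 4293 genes with 13 to 281 counts, the range the factors span, that median is 76.2%, and the top cell held over 50% of the counts in 81.1% of them. Concentration in 1 cell was thus shared by most genes with such counts.

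Factor reads in the cultured cells are set here beside the cells' sarcomere reads. All 47 cultured counts of Gata4, Tbx5 and Tbx20 lay in cells A to D, a division drawn after the counts were seen. These cells hold 125055 of the 206178 cultured counts, and 43.3% of all 2136 genes with 8 to 25 cultured counts, the range of these 3 factors, also had every count there. In cells A to D 6 to 9 of the 10 cardiomyocyte markers were seen, and E, with 0 counts of these factors, showed 7 markers. Of the 196 cultured counts of Mef2a and Mef2c, 127 lay in F and H, which had 0.742% and 0.00419% of their counts in those markers, against 2.68% to 17.5% in A to E. In B to E that share was mostly of 1 gene, Ttn. Cell G, with 1 marker detected, held no factor. Without cultured B to E, the 4 cells with over 1% Rpph1, the levels of the other 4 cells were 82.5 CPM for Gata4, 23.6 for Tbx5, 129.7 for Tbx20, 566 for Mef2a and 967 for Mef2c, and 0 for Nkx2-5. On the log2 scale the ratio of transplanted to these cultured cells was then -4.43 for Gata4 (from -3.34) and -8.71 for Mef2c (from -7.76). The ratio of adult to these cultured cells was -5.13 for Gata4 (from -4.04) and -3.58 for Mef2c (from -2.62). Tbx5 with 2 counts and Nkx2-5 with 0 in these cultured cells gave no ratio in either comparison. The part of these marker and Rpph1 shares in the results was not tested.

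Likeness to other genes could be asked of Mef2a alone, the one factor with counts in at least 6 cells. By Spearman's rho of log2(CPM + 1) over the 24 cells, among 1221 genes with at least 50 counts, the most alike were Zmiz1 (0.82), Sf3b1 (0.78) and Arpc3 (0.74). In the 8 cultured cells Arpc4, Cisd1 and Ralgapa1 each had a rho of 1 with it, among 1116 genes, from counts in 3 cells each. All cells share depth differences and most values are 0, so these are descriptions of sparse counts.

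Other regulators of the heart programme were read from fixed lists beside the 6 factors. Of 35 other cardiac transcription factors, 22 are in the table and 12 were measured between transplanted and cultured cells, with 9 lower, 3 higher and a median log2 ratio of -6.29, where 64.0% of all genes were lower and 22.5% higher. Tead1, a partner of the Hippo pathway coactivators, had 451 CPM in 7 cultured cells, 0 in all transplanted cells and 121 CPM in 4 adult cells. It was at least 195.9-fold lower in transplanted and 3.72-fold lower in adult than in cultured cells, the latter 18.2-fold without adult A. Without cultured D these values are at least 117-fold and 2.22-fold. Meis2, a homeodomain factor, had 354 CPM and Foxc1, a forkhead factor, 228 CPM in cultured cells, both with 0 in the other groups. For Foxc1, 34 of 47 counts lay in cultured G and 13 in F. For Meis2, 33 and 34 of 73 counts lay in F and G. Those 2 cells had 0.742% and 0.0883% of their counts in the cardiomyocyte markers. Between adult and cultured cells 9 of 14 other factors were lower and 0 higher, beside 62.1% and 23.0% of all genes.

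Cofactors were lower in 12 of 12 measured genes in transplanted cells and in 11 of 13 in adult cells, beside the backgrounds of 64.0% and 62.1%. Without cultured B to E, 4 of 5 measured cofactors were lower and 1 higher in transplanted cells, and 4 of 6 lower and 1 higher in adult cells. Of the other cardiac factors 5 of 8 and 5 of 10 were then lower, where 49.5% and 47.3% of all genes were. Myocd, the coactivator myocardin, had 689 CPM in cultured cells and 76.8 CPM in transplanted cells, all 100 counts in cell G. Its 8.97-fold lower level in transplanted cells is at least 276-fold lower without that cell. All 142 cultured counts of Myocd lay in B to E (35, 25, 59 and 23). Without those 4 cells it had 0 cultured counts and was the 1 cofactor called higher in transplanted cells. Smyd1, a muscle methyltransferase, had 1101 CPM in cultured cells, 190 of 227 counts in B, and 31.5 CPM in transplanted cells. It was 35.0-fold lower, 8.09-fold without cultured B and 98.3-fold without transplanted A. Lmcd1, a GATA-binding LIM protein, had 365 CPM in adult cells, 462 of 464 counts in H, and 0 in cultured cells.

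Metabolic regulators were lower in 4 of 4 measured genes in transplanted cells, beside 64.0% of all genes, and in 1 of 2 without cultured B to E, beside 49.5%. In adult cells 4 of 8 were lower and 2 higher, beside 62.1% and 23.0%. Without cultured B to E, 1 of 5 was lower and 1 higher, beside 47.3% and 23.4%. Esrrg, a nuclear receptor of oxidative metabolism, had 131 CPM in cultured cells and 0 elsewhere. Ppargc1a, the coactivator PGC-1alpha, had 72.8 CPM in cultured, 19.2 in transplanted and 2.36 in adult cells. Its 3.79-fold lower level in transplanted cells turns to 1.22-fold higher without cultured E and is 42.9-fold lower without transplanted B. Tfam, a factor of mitochondrial DNA transcription, had 102 CPM in cultured cells, all 21 counts in H, 0 in transplanted cells and 2 counts in adult cells.

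Most measured target genes were higher in transplanted and adult than in cultured cells. Of 30 listed genes 29 are in the table, 25 were measured in transplanted against cultured cells, and 16 were higher and 8 lower, with a median log2 ratio of 4.64 beside -5.63 for all genes, of which 22.5% were higher and 64.0% lower. In adult against cultured cells 18 of 27 were higher and 7 lower, with a median of 4.08, beside 23.0% and 62.1% of all genes. Without cultured B to E, 14 of 23 were higher and 1 lower in transplanted cells, and 19 of 25 higher and 1 lower in adult cells, where 23.6% and 23.4% of all genes were higher. They took 1.16% of the cultured, 14.2% of the transplanted and 13.4% of the adult counts. Myl2, the ventricular myosin light chain, was at 437, 42473 and 38705 CPM, and Tnni3, cardiac troponin I, at 116 CPM, 35971 and 32559 CPM in the cultured, transplanted and adult groups. All cultured counts of both genes lay in cell A. Actc1, cardiac alpha actin, was at 902, 22490 and 15223 CPM, with 112 of its 186 cultured counts in cell A. Named after the values were seen, 3 of the 8 lower in transplanted cells were Myl7, Slc8a1 and Myh7. Myl7 had 1605 CPM in cultured cells, with 199 of 331 counts in cell A and 78 in F, and 0 in the other groups. In transplanted cells Slc8a1 was 62.2-fold and Myh7 47.1-fold lower, with all cultured counts of both in B to E.

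**Figure D4:**
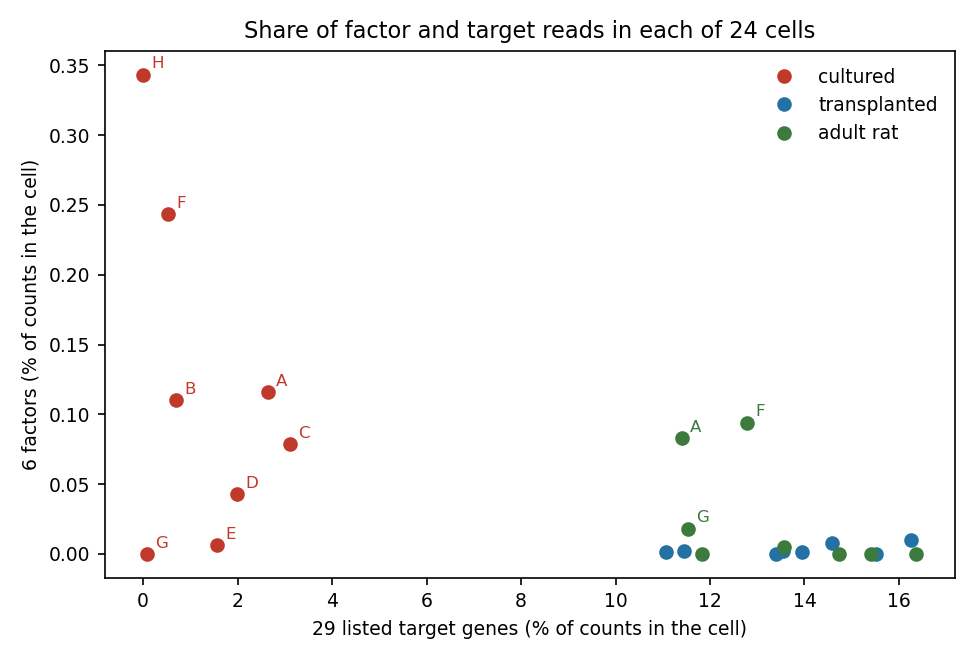
Share of counts in the 29 target genes (horizontal axis, %) against the share in the 6 factors (vertical axis, %), 1 point per cell coloured by group, with letters for cultured cells and for the 3 highest adult cells. Cultured H is highest in factor reads at 0.343% with 0.00419% in targets, and the transplanted cells lie at 11.1% to 16.3% in targets and at most 0.00971% in factors.

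For the genes whose promoters are printed above, the reads were as follows, chosen for their motif matches after the values were seen. Nppb had 0 counts in cultured cells and was at 517 CPM in transplanted and 435 CPM in adult cells, with counts in 4 and 8 cells. Of its 673 transplanted counts 355 lay in H and 276 in F. Xirp2 had 0 in cultured, 322 CPM in transplanted and 33.8 CPM in adult cells, with counts in 4 transplanted and 6 adult cells. Nppa, listed with 0 counts in all 24 cells, cannot be compared. Target genes with a GATA match were higher in transplanted cells in 8 of 12 measured and lower in 4, and those without one in 7 and 3 of 11. In adult cells 8 of 13 with a match were higher and 3 lower, and without one 8 and 3 of 11. Over all genes 22.5% were higher and 64.0% lower in transplanted cells, and 23.0% and 62.1% in adult cells.

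**Figure D5:**
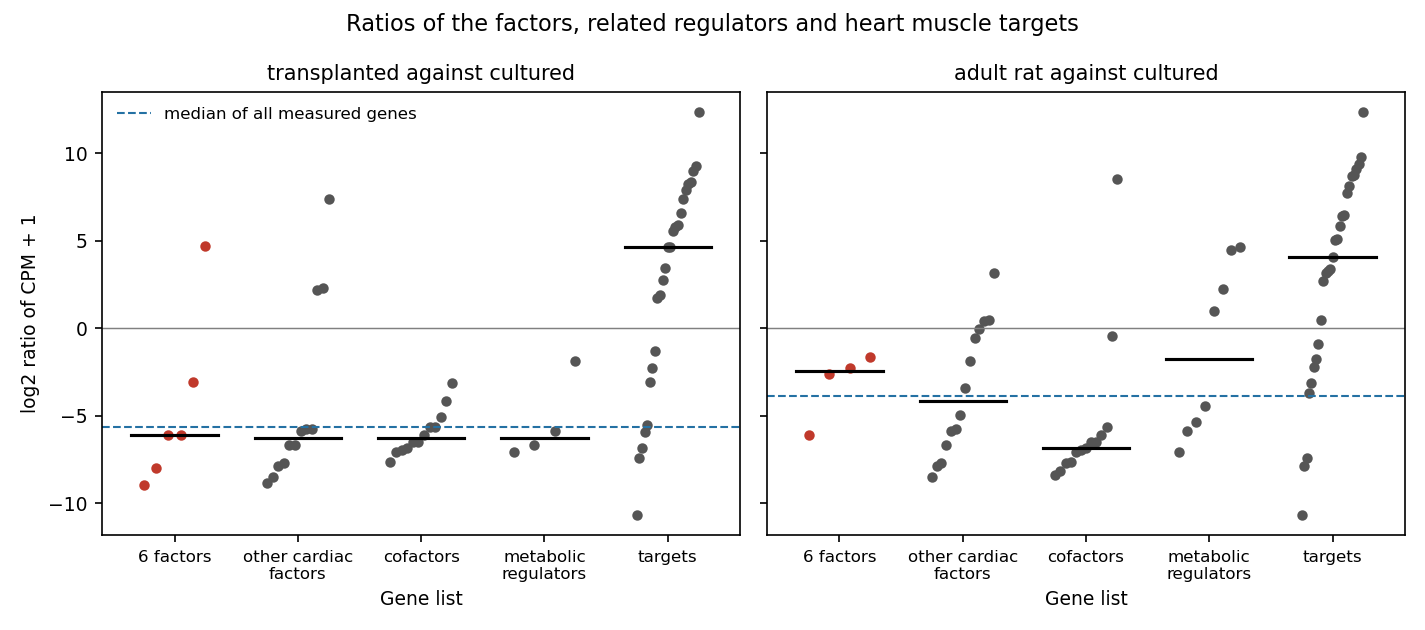
Ratio of CPM + 1 (log2) of each measured gene in 5 lists, for transplanted and adult cells against the cultured cells, with black bars at list medians and a dashed line at the median of all measured genes. The factors have medians of -6.11 and -2.44 and the targets of 4.64 and 4.08; the one factor drawn above 0 is Nkx2-5, whose height depends on the 1 CPM added to a cultured level of 0.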

How the data were processed

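cDNA libraries (SMARTscribe reverse transcription, PCR and Tn5, per the labels' protocols) of 24 single cells were read from 1 table of whole-number gene counts, as deposited by the authors. Per the submitters' processing notes, TopHat2 2.1.0, HTSeq and DESeq2 were used with the mouse build mm10, the only build named, for rat cells too; the sources used here do not give their settings. The 9595 listed genes include 692 with no count in any cell. Here CPM were computed from each cell's total, cells of a group were summed, and exact intervals were taken with scipy 1.17.1. No p-values were computed, since the labels name no culture or animal. The 6 genes and all context lists were chosen with earlier results of these data known. Besides the factors, the text names the 3 genes of highest summed CPM in each list of regulators and targets and the 3 genes most like a factor; the rule covers marker lists too, which are given as sums with few names. Other genes are named as chosen later. Alternatives were TMM factors (edgeR 4.0.16), size factors (DESeq2 1.42.0), equal cell weights, totals without Rn45s and Rpph1, other minimums, folds and pseudocounts, and each cell left out. The labels pair no cells, and the ratio code was tested on simulated counts. Promoters come from RefSeq, and coding starts from GENCODE transcripts.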

Additional observations from a re-analysis of the deposited data

Results flagged for a closer look

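In 10 of 13 sets of 8 cells that could be assessed, 1 cell lay far from the other 7 in the CPM of a factor; chance flags about 1 in 20 groups of measured values, but that rate does not hold here, where most values are 0. In 4 of the 10 sets only 1 cell had any count, which flags the set at any level. These cells were adult C for Nkx2-5 (34.7 CPM), cultured A for Gata4 (353 CPM), cultured D for Tbx5 (430 CPM), transplanted A and adult G for Tbx20 (7.04 and 180 CPM), and cultured F, transplanted G and adult A for Mef2a (2436, 9.98 and 831 CPM). For Mef2c they were cultured H (3433 CPM) and adult F (940 CPM). The values of 7.04 and 9.98 CPM are 1 count each.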

How the results depend on the processing

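Each of 16 ratios of single factors was recomputed under every scaling or choice of cells that could alter it, 75 values in all: 54 stayed within 1.5-fold, 18 moved further, 0 reversed and 3 could not be given. With 1 cell of the compared groups left out, 228 of 256 values stayed within 1.5-fold, 19 moved further, 0 reversed and 9 could not be given, because too few counts were left to clear the limits. Most of the cells left out had 0 counts of the factor, so leaving them out changed only a group total. A ratio to a group with 0 counts is a bound and could not reverse. These tallies are therefore no measure of how stable the ratios are. Under TMM scaling 1 factor, Nkx2-5, was called higher in transplanted than in cultured cells instead of 0, and 0 to 1 were with 1 cell left out. Called lower in transplanted cells were 5 factors, 4 to 5 with 1 cell left out and 3 at a minimum of 20 counts, which admits fewer genes. In adult against cultured cells 3 to 4 were lower and 0 higher, and in adult against transplanted cells 2 to 3 were higher and 1 lower, with 1 cell left out. At the main settings 64.0%, 62.1% and 34.8% of all genes were lower in these 3 comparisons, and 22.5%, 23.0% and 44.3% higher. Those shares move with the settings too: the median over all genes in transplanted against cultured cells was -5.76 to -2.90 with 1 cell left out. The counts are therefore not read as results about the factors. The median log2 ratio of the metabolic regulators in adult against cultured cells, -1.73, was 4.42 without the cultured cells with over 1% Rpph1, 1.62 at a minimum of 20 counts and -4.79 to 1.52 with 1 cell left out (0.84 without cultured H and 1.52 without cultured E). That of the cofactors in adult against transplanted cells, -3.27, was -4.03 to 5.22, the latter without transplanted G. The cause of these shifts was not tested. No paired analysis was possible because the cell letters pair nothing and no test was made. Depth limits the cultured cells most: 0 counts in a single cell there allows levels of up to 49.4 to 186 CPM.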

Other observations

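Some other cardiac factors are given here as values, chosen after they were seen. Hey2, a Notch target of the ventricle, had 219 counts (168 CPM), all in transplanted H, a cell with none of the 6 factors, and 0 in every cultured and adult cell. Gata6, a close relative of Gata4, had 67 counts in transplanted B, 8 in adult B and 2 in cultured A. Hand1, a basic helix-loop-helix factor of the left ventricle, had 14 counts in cultured B and 7 in cultured D, or 102 CPM, and 0 in the other groups.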
